A study of Mus musculus with 32 samples.

Results

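Oxidative phosphorylation was represented by 98 of the 45706 genes in the deposited tables, 85 encoded in the nucleus and 13 in mitochondrial DNA. The genes were taken by name from the protein-coding models: the Nduf subunits of complex I, Sdha to Sdhd of complex II, the Uqcr genes and Cyc1 of complex III, the Cox4 to Cox8 families of complex IV, the Atp5 genes of complex V and every protein-coding gene of mitochondrial DNA. The rule used names and no measured value, but it was set with earlier results of these data known. A further 10 models that carry such names but are not protein-coding were left out. The nuclear genes fell into complex I (35 genes), complex II (4), complex III (9), complex IV (20, with Ndufa4 and Ndufa4l2 counted here) and complex V (17). The mitochondrial genes encode 7 subunits of complex I, 1 of complex III, 3 of complex IV and 2 of complex V.

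Oxidative phosphorylation is the route by which mitochondria turn the energy of nutrients into ATP. Complexes I and II pass electrons to ubiquinone, complex III hands them to cytochrome c, complex IV reduces oxygen, and complex V uses the proton gradient that complexes I, III and IV build. Complexes I, III, IV and V join subunits from the nuclear and the mitochondrial genome, while complex II is wholly nuclear. Quiescent blood stem cells are known for a low reliance on this route, and it is taken up as they are activated.

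The RNA came from hematopoietic stem and progenitor cells (HSPCs), which renew the blood, sorted from mouse bone marrow as lineage-negative, cKit+ and Sca1+ cells of wild-type donor origin (C57BL/6J, CD45.1+/2+). Lethally irradiated CD45.2 C57BL/6J recipients had been given 800000 wild-type marrow cells beside 200000 CD45.1 partner cells. In experienced mice the partner marrow was homozygous for hMLL-AF9, a human leukemia fusion gene, and for rtTA, the activator that switches it on under doxycycline. In naive mice the partner marrow lacked hMLL-AF9 and was homozygous for rtTA alone. From 6 to 8 weeks after transplantation, leukemia was induced with doxycycline for 5 weeks and left to regress for 4 weeks after withdrawal. The sources used here do not state whether naive mice also received doxycycline. Mice of both kinds were then injected with PBS or with lipopolysaccharide (LPS), a bacterial product that triggers inflammation, and were sacrificed 24 h later. This gave 4 groups (naive PBS, naive LPS, experienced PBS and experienced LPS) of 4 libraries each. The sorted cells carried no transgene, so the groups differ in what the cells were exposed to and not in their own genotype. All 4 groups share irradiation and transplantation. The LPS dose and the age and sex of the mice are not stated. The labels name the 4 replicates of a group as biological replicates, apart from technical ones. They do not state that these 4 are separate mice, so the spread between them may be partly technical.

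Libraries held 7.72 to 22.3 M counts and 14859 to 19673 detected genes, with both minima in experienced LPS replicate 4, whose mean correlation with its own group was the lowest (0.915). All 7 genes of the sort and of HSPC identity in the marker list (Kit, Ly6a, which encodes Sca1, Cd34, Cd48, Slamf1, Flt3 and Ptprc) were detected in every library, Kit at 404 to 778 CPM (counts scaled to a common library size) and Ly6a at 14.7 to 157 CPM. After LPS, 8 of 10 HSPC markers were called lower and 1 higher in naive mice, and 6 lower and 1 higher in experienced mice. Ly6a went up, from 26.3 to 51.8 CPM in naive PBS to 63.3 to 157 CPM in naive LPS. In experienced mice it stood at 14.7 to 44.6 CPM after PBS and 82.4 to 131 CPM after LPS. The summed level of 12 erythroid markers was 480 to 592 CPM in naive PBS, 1228 to 2586 in naive LPS, 384 to 3068 in experienced PBS, and 1014 to 2307 in experienced LPS, with the maximum in replicate 4 in both experienced groups, while the defining globins stayed at or below 2.39 CPM. Of the 11 tested erythroid markers, 7 were called higher after LPS in naive and 1 in experienced mice, as were 6 and 4 of 6 basophil and mast cell markers and 1 and 1 of 6 megakaryocyte markers. Called lower after LPS in naive and experienced mice were 5 and 3 of 9 tested B cell markers, 2 and 2 of 5 T and NK cell markers, 2 and 1 of 8 macrophage and monocyte markers, and 1 and 0 of 8 neutrophil markers. For scale, 9.81% (naive) and 4.52% (experienced) of all tested genes were called higher after LPS. The shares called lower were 11.9% and 8.26%. A count of 1 in lists this short rests on 1 gene and is not read as a change of the list. The part of the marker changes in the results below was not tested. In such bulk libraries, a change in the mix of cells and a change in RNA per cell cannot be told apart.

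The 85 nuclear genes together made up a small and steady share of the counts in PBS and a larger share in most libraries after LPS. In naive PBS the share was 0.714, 0.641, 0.643 and 0.669% in replicates 1 to 4, and in experienced PBS it was 0.597, 0.634, 0.614 and 0.663%. In naive LPS the replicates gave 0.623, 0.715, 0.918 and 0.821%, and in experienced LPS 0.918, 0.928, 0.912 and 0.569%. Naive LPS replicate 1 lay below every naive PBS library and experienced LPS replicate 4 below every experienced PBS library, while experienced LPS replicates 1 to 3 lay above every PBS library. The group means were 0.667 ± 0.0340% (SD, n = 4) in naive PBS, 0.769 ± 0.128% in naive LPS, 0.627 ± 0.0285% in experienced PBS and 0.832 ± 0.175% in experienced LPS. The widest 95% Wilson interval of any library's nuclear share was 0.922 to 0.934%, which covers counting error only.

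**Figure D1:**
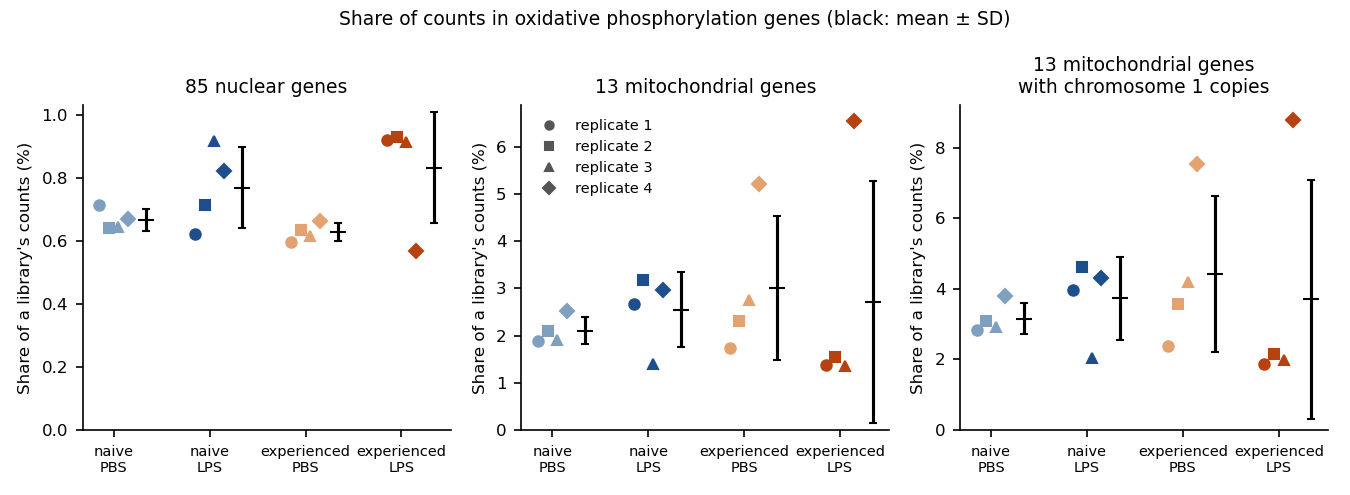
Share of each library's counts (percent) in the 85 nuclear genes, in the 13 mitochondrial genes, and in the 13 mitochondrial genes with their copies on chromosome 1 added, by group; symbols are libraries by replicate number and black bars the mean ± SD of 4. Experienced LPS replicate 4 has the lowest nuclear share (0.569%) and the highest mitochondrial share (6.55%).

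After LPS the nuclear genes that passed the test all rose. Of the 80 nuclear genes with enough counts to be tested, 18 were called higher and 0 lower in naive mice (edgeR's quasi-likelihood test, Benjamini-Hochberg adjusted p under 0.05 over 15186 genes), where 9.81% of all tested genes were called higher and 11.9% lower. In experienced mice 10 of 80 were called higher and 0 lower, against 4.52% and 8.26% of all genes. The genes called in both numbered 7: Ndufb10, Ndufa8, Ndufv2 and Ndufs5 of complex I, Cox4i2 and Cox5b of complex IV and Atp5f1 of complex V. The median log2 difference of the 80 genes was 0.31 in naive and 0.53 in experienced mice, against 0.02 and -0.02 over all tested genes. The difference was above 0 for 73 of 80 genes in naive and 76 of 80 in experienced mice, and for 51.4% and 48.0% of all genes. In naive mice all 4 LPS libraries lay above all 4 PBS libraries for 15 of 80 genes (12.5% of all genes) and in experienced mice for 8 (6.45%); for none, 0 of 80, did they lie below (16.8% and 10.9% of all genes).

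**Figure D2:**
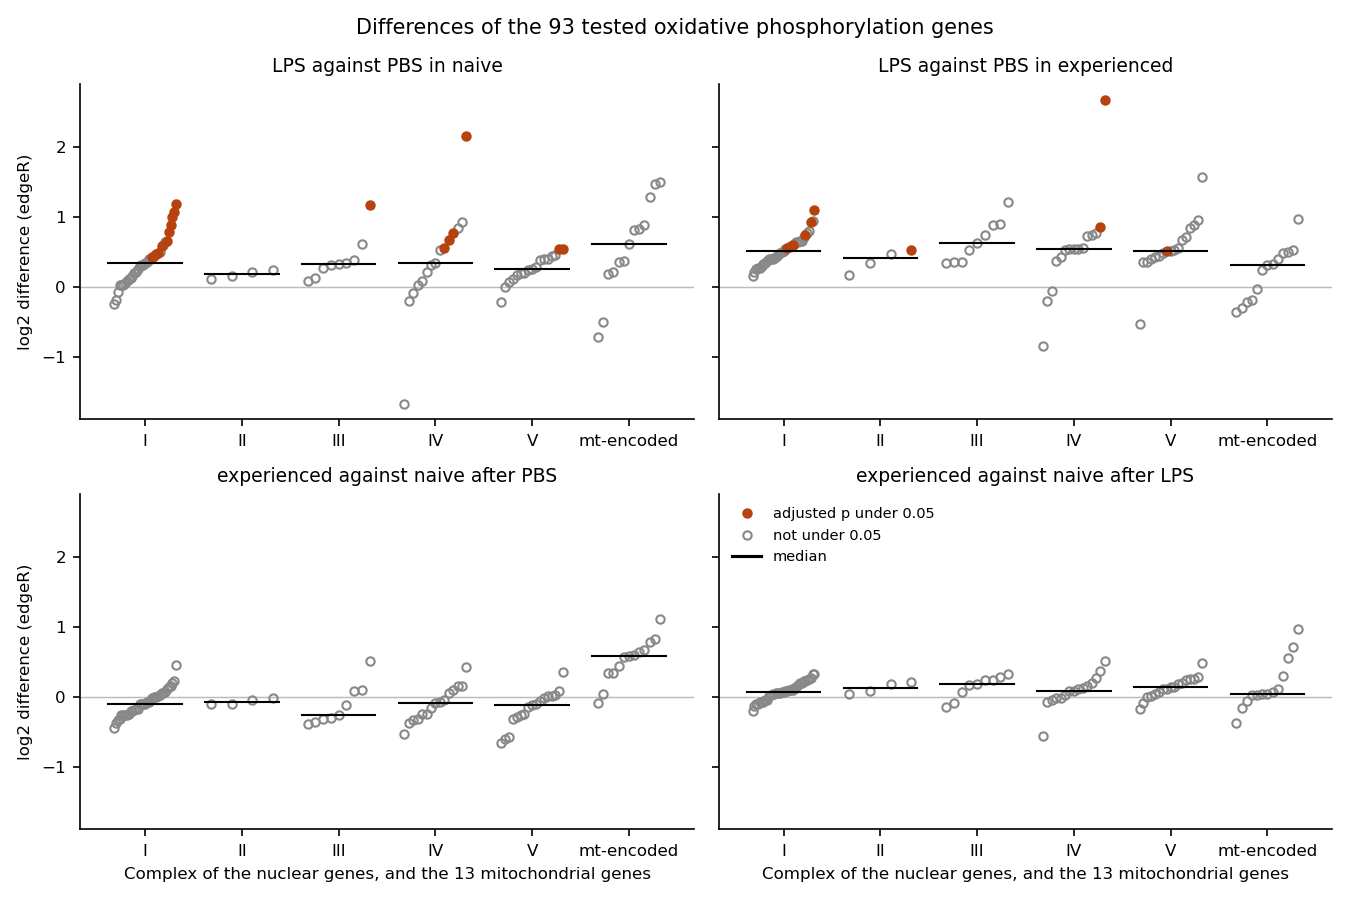
Log2 differences from edgeR for the 80 tested nuclear genes by complex and the 13 mitochondrial genes, in 4 comparisons; filled points passed an adjusted p of 0.05 and bars are medians. Calls occur only in the upper panels, 18 nuclear genes for LPS in naive and 10 in experienced mice.

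Promoters are shown for 3 of the genes that rose, chosen because they hold letters bound by factors known to drive genes of this pathway. Windows from RefSeq (GRCm38.p6), 250 bases before to 50 after a gene's start, matched 68 of the 85 nuclear genes. They were searched on both strands for the palindrome-like NRF1 motif and for GABPA (CCGGAAG), ERRA (AAGGTCA) and YY1 (AANATGGCG). The bases before the start of Ndufs5 (chr4:123718187-123718436, minus strand), Ndufa8 (chr2:36049339-36049588, minus strand) and Atp5h (chr11:115419920-115420169, minus strand) are given with every match in capitals.
Ndufs5: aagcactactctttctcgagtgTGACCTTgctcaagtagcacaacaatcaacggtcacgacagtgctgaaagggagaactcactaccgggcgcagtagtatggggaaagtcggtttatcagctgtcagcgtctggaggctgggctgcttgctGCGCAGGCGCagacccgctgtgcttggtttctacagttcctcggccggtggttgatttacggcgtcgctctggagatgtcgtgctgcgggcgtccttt
Ndufa8: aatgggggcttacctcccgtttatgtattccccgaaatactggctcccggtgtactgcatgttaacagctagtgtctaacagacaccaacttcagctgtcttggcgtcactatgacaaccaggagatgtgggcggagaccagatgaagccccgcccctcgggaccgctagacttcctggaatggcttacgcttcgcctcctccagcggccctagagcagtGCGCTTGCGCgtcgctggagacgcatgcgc
Atp5h: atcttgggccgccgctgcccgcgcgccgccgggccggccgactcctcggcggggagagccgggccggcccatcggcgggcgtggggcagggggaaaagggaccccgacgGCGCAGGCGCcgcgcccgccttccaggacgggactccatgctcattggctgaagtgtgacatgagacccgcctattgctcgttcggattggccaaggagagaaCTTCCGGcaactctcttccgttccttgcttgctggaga
In Ndufs5 the capitals mark ERRA letters that begin 228 bases before the start and NRF1 letters that begin 98 bases before it. Ndufa8 has NRF1 letters 30 bases before its start, and Atp5h has NRF1 letters at 141 and GABPA letters at 38 bases before it. The NRF1 letters stood in 24.7% of 73 windows of the nuclear genes and in 4.60% of all 32851 windows, GABPA in 21.9% and 8.86%, YY1 in 13.7% and 2.38%, and ERRA in 11.0% and 4.72%. Among the 17 matched genes that rose after LPS in either kind of mouse, 5 held NRF1, 3 GABPA, 1 ERRA and 1 YY1 letters. A match describes letters only.

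Complex I, which oxidizes NADH and is the largest of the complexes, had 11 of its 35 nuclear genes called higher after LPS in naive and 6 in experienced mice. The shares of all tested genes called higher were 9.81% and 4.52%. Ndufb10, an accessory subunit facing the intermembrane space, stood at 42.5, 28.3, 26.9 and 28.0 CPM in naive PBS and at 39.6, 64.4, 60.6 and 51.9 CPM in naive LPS. In experienced mice it stood at 31.2, 27.9, 25.3 and 40.9 CPM after PBS and at 49.5, 60.8, 58.7 and 41.2 CPM after LPS. The groups overlapped in naive mice, through PBS replicate 1 and LPS replicate 1, and did not in experienced mice. The rise was 0.78 ± 0.20 (log2, SE) in naive mice, adjusted p = 0.0118, and 0.75 ± 0.20 in experienced mice, adjusted p = 0.0221. Ndufa8, another accessory subunit with cysteine motifs, averaged 38.8 ± 2.79 CPM (SD, n = 4) in naive PBS and 58.5 ± 12.9 in naive LPS, and 37.0 ± 5.55 and 55.3 ± 7.83 in experienced mice. It rose by a log2 of 0.59 ± 0.16 (SE) and 0.58 ± 0.16, adjusted p = 0.0160 and 0.0252.

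Among the subunits of complex I that carry electrons, 1 of the 4 named here was called in both kinds of mouse. Ndufv2, an iron-sulfur subunit of the NADH-oxidizing end, rose by 0.44 ± 0.15 in naive (adjusted p = 0.0435) and by 0.56 ± 0.15 in experienced mice (adjusted p = 0.0210). Ndufs1, which holds several iron-sulfur clusters, was called in naive mice, with a log2 difference of 0.48 ± 0.14 and an adjusted p of 0.0267, against 0.30 ± 0.14 and 0.189 in experienced mice. Ndufv1, the flavin-bearing subunit that takes electrons from NADH, was called in experienced mice, at 0.60 ± 0.19 and 0.0466, against 0.20 ± 0.19 and 0.475 in naive mice. The difference between the 2 kinds of mouse did not pass the test for Ndufs1 (-0.18 ± 0.20, adjusted p = 0.894) or for Ndufv1 (0.40 ± 0.27, adjusted p = 0.884). Ndufs7, the iron-sulfur subunit next to ubiquinone, had differences of 0.25 ± 0.21 and 0.54 ± 0.21, adjusted p = 0.435 and 0.110.

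The larger changes of complex I were in small accessory subunits whose levels varied between LPS libraries. Ndufs6, a zinc-binding subunit, stood at 39.6, 98, 43.4 and 50.3 CPM in naive LPS against 34.0, 23.7, 21.7 and 30.3 in naive PBS. All 4 LPS libraries were above the PBS libraries, LPS replicate 2 by far the most, and the rise was 1.07 ± 0.32 (adjusted p = 0.0241). Without that library it was 0.71 ± 0.28 (adjusted p = 0.0916). In experienced mice Ndufs6 had a difference of 0.71 ± 0.32 (adjusted p = 0.151), with 51.0 CPM in PBS replicate 4 against 23.5 to 24.0 in the other PBS libraries. Ndufs5 rose in both kinds of mouse, by 0.89 ± 0.28 (adjusted p = 0.0337) and 0.92 ± 0.28 (adjusted p = 0.0420), and its highest levels were 63.5 CPM in naive LPS replicate 2 and 61.3 CPM in experienced LPS replicate 4. Without experienced LPS replicate 4 its difference in experienced mice was 0.67 ± 0.26, adjusted p = 0.0789. Ndufa5, an accessory subunit, was called in naive mice (1.19 ± 0.38, adjusted p = 0.0338), and Ndufb6, a membrane-arm accessory subunit, in experienced mice (1.10 ± 0.33, adjusted p = 0.0383). Ndufb4 is uncertain, since a near-identical pseudogene copy holds more counts than the gene itself.

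Complex II, which links the tricarboxylic acid cycle to the electron chain, had 0 of 4 genes called in naive and 1 of 4 in experienced mice. Among all tested genes 9.81% and 4.52% were called higher, and 1 of 4 rests on 1 gene. The gene called was Sdhc, a membrane anchor of the complex, at 60.2, 59.0, 56.5 and 53.1 CPM in experienced PBS and 85.9, 95.0, 82.7 and 66.1 CPM in experienced LPS. The groups did not overlap, LPS replicate 4 was the lowest of its group, and the rise was 0.53 ± 0.15 (adjusted p = 0.0249). In naive mice the Sdhc difference was 0.21 ± 0.14 (adjusted p = 0.326), with LPS libraries from 54.0 to 85.1 CPM around PBS libraries of 58.8 to 64.1 CPM. Sdha, the flavoprotein that oxidizes succinate, had differences of 0.12 ± 0.14 and 0.17 ± 0.14, adjusted p = 0.588 and 0.485. Sdhb, its iron-sulfur partner, had 0.16 ± 0.23 and 0.34 ± 0.23, adjusted p = 0.660 and 0.356, and stood at 31.5 CPM in experienced LPS replicate 4 against 74.4 to 77.8 CPM in the other 3 libraries.

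Complex III had 1 of 9 nuclear genes called in naive mice, Uqcrb, and 0 of 9 in experienced mice, where 5 had an unadjusted p under 0.05 (27.9% of all genes). The naive count is near the 9.81% of all tested genes called higher there, and that share was 4.52% in experienced mice. Uqcrb, a small subunit near the ubiquinone site, stood at 60.4, 54.6, 53.8 and 78.2 CPM in naive PBS and at 105, 280, 82.2 and 92.9 CPM in naive LPS. The groups did not overlap, and the rise of 1.18 ± 0.39 (adjusted p = 0.0398) was 0.62 ± 0.32 (adjusted p = 0.201) without LPS replicate 2. That library had the shortest mean fragment, 110 nt against 134 to 217 nt in the others, and with fragment length as a term in the fit the difference was 1.0001 ± 0.39 (adjusted p = 0.0808).

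Cyc1, the cytochrome c1 that passes electrons to cytochrome c, showed how experienced LPS replicate 4 departed from its group. It stood at 121, 115 and 130 CPM in replicates 1 to 3 and at 23.1 CPM in replicate 4, against 54.1 to 62.4 CPM in experienced PBS. The LPS libraries thus lay on both sides of the PBS libraries, and the difference was 0.75 ± 0.37 (adjusted p = 0.202) with all libraries and 1.10 ± 0.24 (adjusted p = 0.00537) without replicate 4. Uqcrfs1, the Rieske iron-sulfur protein, went from 0.63 ± 0.24 (adjusted p = 0.0915) to 0.88 ± 0.18 (0.00426), and the core subunit Uqcrc1 from 0.36 ± 0.20 (0.254) to 0.57 ± 0.16 (0.0213). In naive mice none of these 3 was called, with differences of 0.31 ± 0.37, 0.09 ± 0.24 and 0.27 ± 0.20.

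Complex IV held the largest rise of all nuclear members. Cox4i2 (chr2:152754173-152765037, plus strand), the form of subunit 4 known from lung and low oxygen, stood at 1.02, 0.889, 0.576 and 1.02 CPM in naive PBS and at 2.67, 5.29, 4.52 and 3.33 CPM in naive LPS. In experienced mice it stood at 0.418, 1.15, 0.333 and 0.465 CPM after PBS and at 4.62, 3.28, 2.88 and 4.81 CPM after LPS. All 8 LPS libraries lay above all 8 PBS libraries, and experienced LPS replicate 4 was the highest of its group. The rise was 2.16 ± 0.40 (log2, SE; adjusted p = 0.00167) in naive and 2.68 ± 0.42 (adjusted p = 0.000699) in experienced mice, and both calls were kept in 21 of 21 alternative analyses.

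Cox4i2 remained a minor form next to Cox4i1, the usual form of subunit 4. Per length (TPM), Cox4i2 made up 0.514 ± 0.0881% (SD, n = 4) of the sum of both forms in naive PBS and 2.16 ± 0.493% in naive LPS, 0.427 ± 0.241% in experienced PBS and 2.35 ± 1.56% in experienced LPS. The highest share, 4.64%, was in experienced LPS replicate 4, where Cox4i1 was at its lowest, 99.5 CPM against 211 to 240 in the other 3 libraries. Cox4i1 itself had log2 differences of 0.08 ± 0.23 (adjusted p = 0.842) and 0.54 ± 0.23 (adjusted p = 0.135) after LPS. Without experienced LPS replicate 4 its rise in experienced mice was 0.78 ± 0.18 (adjusted p = 0.00638).

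Of the other 14 tested genes of complex IV, 3 were called in naive and 1 in experienced mice, where 9.81% and 4.52% of all tested genes were called higher. Cox5b, a zinc-binding subunit, was called in both, at 142, 106, 104 and 101 CPM in naive PBS and 125, 148, 232 and 214 CPM in naive LPS, and at 108, 109, 81.3 and 132 CPM in experienced PBS and 199, 236, 221 and 125 CPM in experienced LPS. In each kind of mouse the groups overlapped, through LPS replicate 1 in naive and replicate 4 in experienced mice. The rises were 0.67 ± 0.22 (adjusted p = 0.0428) and 0.86 ± 0.23 (adjusted p = 0.0193). Cox6b1, which faces the intermembrane space, rose in naive mice by 0.56 ± 0.16 (adjusted p = 0.0206) and had 0.43 ± 0.16 (0.0901) in experienced mice; Cox7b, a small membrane subunit, rose in naive mice by 0.77 ± 0.25 (0.0363) and had 0.54 ± 0.25 (0.162). Cox5a, a matrix-side subunit, had 0.21 ± 0.29 (0.645) and 0.75 ± 0.29 (0.103).

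Apart from Cox6b2, the tissue-linked forms of complex IV subunits were low or listed at 0. Cox6a2, the heart and muscle form of subunit 6a, stood at 0.912 to 3.09 CPM in naive PBS and 0.157 to 1.08 in naive LPS, and its differences of -1.67 ± 0.85 and -0.84 ± 0.83 did not pass the test (adjusted p = 0.172 and 0.559). Cox6b2, the testis form of subunit 6b, had 0.93 ± 0.40 in naive (adjusted p = 0.108) and -0.05 ± 0.40 in experienced mice (0.947). Per length (TPM) it was a sizable part of the sum with Cox6b1. Its share was 17.5 ± 2.66% (SD, n = 4) in naive PBS and 20.8 ± 10.9% in naive LPS. In experienced mice the share was 19.9 ± 6.21% after PBS and 15.1 ± 2.44% after LPS. The remaining 5 nuclear genes did not pass the count filter: Cox8b, Cox8c and Cox7b2 had 0 counts in all 16 libraries, which allows up to 0.0115 CPM over the libraries together, Ndufa4l2 had 2 counts and Cox7a1 had 41. Cox7a2l, a factor that joins complexes III and IV, and Cox6a2 were the 2 tested nuclear genes whose difference was below 0 in both kinds of mouse; for Cox7a2l it was -0.20 ± 0.17 and -0.20 ± 0.17 ( adjusted p = 0.427 and 0.470).

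Complex V, the ATP synthase, had 2 of 17 nuclear genes called in naive and 1 in experienced mice. The naive count is 11.8% of the complex. Both counts are near the 9.81% (naive) and 4.52% (experienced) of all tested genes called higher. Atp5f1, which here names subunit b of the stalk that holds the catalytic head, stood at 172, 140, 143 and 167 CPM in naive PBS and 179, 307, 217 and 207 CPM in naive LPS. In experienced mice it stood at 142, 154, 171 and 193 CPM after PBS and 240, 229, 250 and 220 CPM after LPS. The groups did not overlap in either kind of mouse, and Atp5f1 rose by 0.55 ± 0.16 (adjusted p = 0.0200) and 0.51 ± 0.16 (adjusted p = 0.0423). Atp5h, subunit d of the same stalk, rose in naive mice by 0.54 ± 0.17 (adjusted p = 0.0286) and had 0.42 ± 0.17 (0.102) in experienced mice. The head subunits did not pass the test: Atp5b, the catalytic beta subunit, had 0.28 ± 0.20 and 0.51 ± 0.20 (adjusted p = 0.328 and 0.0996), and Atp5a1, the alpha subunit, 0.39 ± 0.18 and 0.48 ± 0.18 (0.140 and 0.0953). Atp5b stood at 1178, 1132 and 1169 CPM in experienced LPS replicates 1 to 3 and at 594 CPM in replicate 4.

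**Figure D3:**
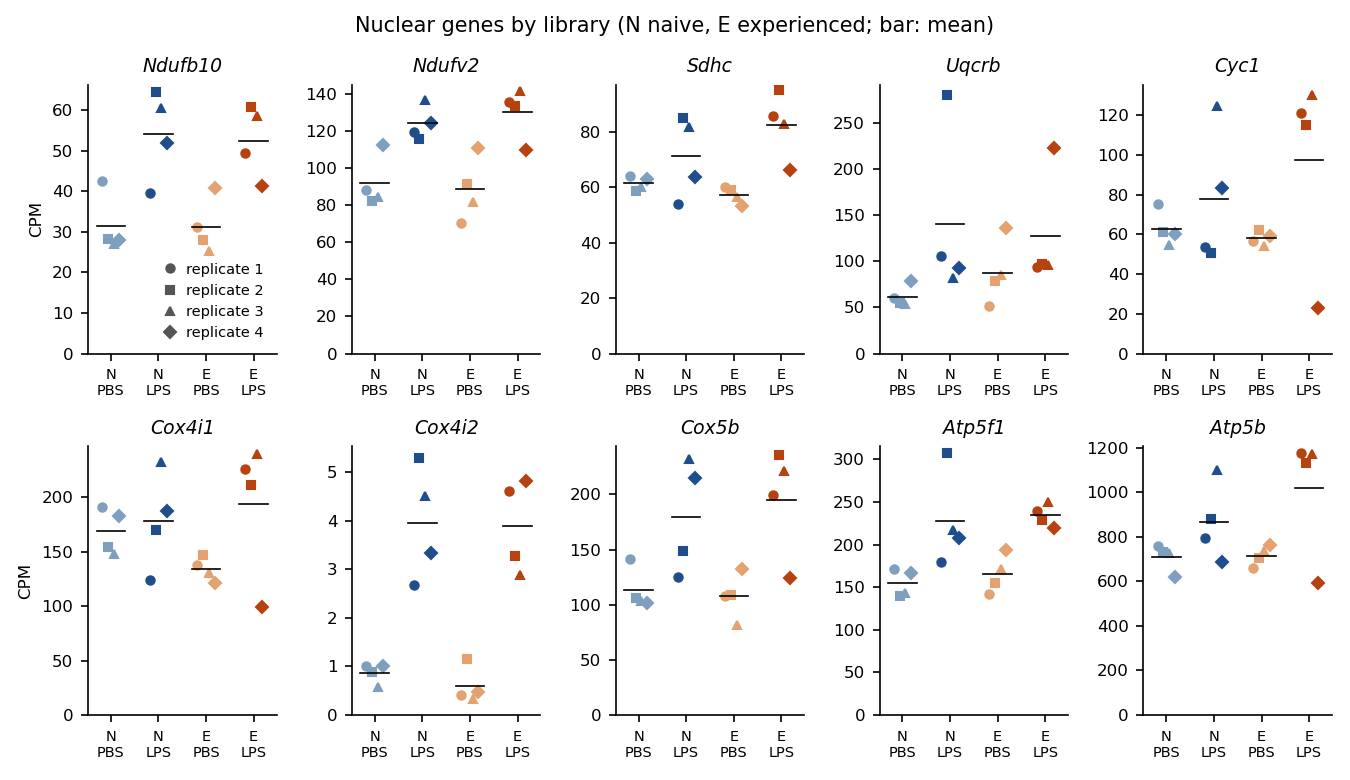
CPM of 10 nuclear genes in each library of naive (N) and experienced (E) mice after PBS or LPS, on linear axes from 0; symbols are replicate numbers and bars group means. Cox4i2 separates all 8 LPS from all 8 PBS libraries, while Cyc1, Cox4i1 and Atp5b are high in experienced LPS replicates 1 to 3 and low in replicate 4.

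The number of calls in experienced mice depended on which libraries were in the fit. In experienced LPS replicate 4, 67 of the 80 nuclear genes were lower than the mean of the other 3 libraries, with a median log2 difference of -0.78; in experienced PBS replicate 4, 26 of 80 were lower, with a median of 0.18. Without experienced LPS replicate 4, 49 nuclear genes were called higher and 1 lower for LPS in experienced mice, where 9.36% of all tested genes were called higher and 10.9% lower. These were 18 of 35 genes of complex I, 3 of 4 of complex II, 7 of 9 of complex III, 9 of 15 of complex IV and 12 of 17 of complex V. The gene called lower was Atp5s, which encodes a coupling factor of the ATP synthase (-0.71 ± 0.24, adjusted p = 0.0437), named here because of that value. Without both replicates 4, 56 were called higher and 0 lower in experienced mice (10.1% and 11.6% of all genes) and 22 and 0 in naive mice (15.7% and 15.4%). Leaving out any of experienced PBS replicates 1 to 3 or LPS replicates 2 and 3 instead left 1 nuclear gene called, leaving out LPS replicate 1 left 3, and leaving out PBS replicate 4 left 22. In naive mice 2 were called without PBS replicate 2, 4 without PBS replicate 3, 9 without LPS replicate 2 and 11 without LPS replicate 3, of 18 with all libraries. The share of all genes called was not counted in these fits, unlike in the fit without experienced LPS replicate 4. Their counts are therefore not read as a result about the nuclear genes alone. The median difference of the nuclear genes stayed above 0 in all 21 alternatives, from 0.32 to 0.75 in experienced and from 0.11 to 0.45 in naive mice, where it was 0.15, with 59 of 80 above 0, without LPS replicate 3.

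**Figure D4:**
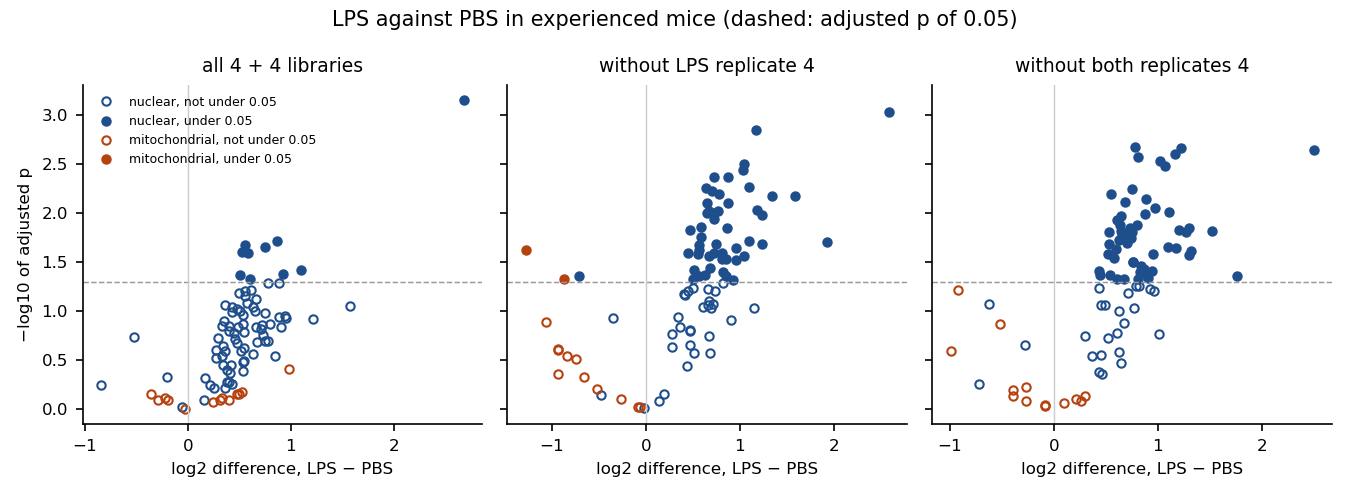
Log2 difference between LPS and PBS in experienced mice (x) against -log10 of the adjusted p (y) for 80 nuclear and 13 mitochondrial genes, with all libraries, without LPS replicate 4 and without both replicates 4; filled points passed an adjusted p of 0.05 (dashed). Nuclear calls number 10 higher, 49 higher with 1 lower, and 56 higher.

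No nuclear gene was called between experienced and naive mice. In simulated data the test recovered 2% of 1.5-fold changes between these mice after PBS and after LPS. It recovered 68% and 76% of 4-fold changes, so small changes and some large ones could be missed. In edgeR's test, 0 of 80 passed after PBS, after LPS, averaged over both, or as a difference between the LPS responses, and 0.0% of all 15186 genes did so in each of these. DESeq2 and limma on log2(TPM + 1) also called 0 nuclear genes in each, and the number at an unadjusted p under 0.05 was 0 of 80 in each, against 2.97, 3.23, 1.94 and 4.58% of all genes. After PBS the median log2 difference of the nuclear genes was -0.10 (0.00 over all genes), 25 of 80 were above 0, and the median stayed below 0 in all 21 alternatives, from -0.19 to -0.03. In 9 of 80 genes all 4 experienced PBS libraries lay below all 4 naive PBS libraries, as in 2.22% of all genes, and in 0 of 80 all lay above (1.82% of all genes). The 9 genes were Ndufa11, Ndufc2, Uqcr10, Uqcrfs1, Uqcrq, Cox4i1, Ndufa4, Atp5g3 and Atp5l. Cox4i1 stood at 191, 154, 148 and 183 CPM in naive PBS and at 138, 147, 131 and 121 CPM in experienced PBS, a difference of -0.33 ± 0.23 with an adjusted p of 0.988. After LPS the median was 0.09, with 61 of 80 genes above 0, and for none did the 4 libraries of each kind of mouse separate (0 above and 0 below, against 0.606% and 1.01% of all genes). This median rested on single libraries: it was 0.0029, with 41 of 80 above 0, without naive LPS replicate 1, 0.03 without experienced LPS replicate 3, 0.23 without naive LPS replicate 3 and 0.28 without experienced LPS replicate 4. Without both replicates 4, the medians were -0.18 after PBS and 0.28 after LPS, and 0 were called. The LPS effect in experienced mice exceeded that in naive mice by a median of 0.23, which was 0.11 without naive LPS replicate 1, 0.40 without experienced LPS replicate 4 and 0.45 without both replicates 4. The extremes were Atp5k, subunit e of the synthase, at 1.14 ± 0.82 (adjusted p = 0.884) and Cox6b2 at -0.98 ± 0.57 (0.884). Atp5k also had the lowest difference between experienced and naive mice after PBS (-0.65 ± 0.58, adjusted p = 0.988) and Uqcrb the highest (0.51 ± 0.39, adjusted p = 0.988); after LPS the ends were Cox6b2 (-0.56 ± 0.40) and Cox6a2 (0.52 ± 0.87).

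The 13 mitochondrial genes were mostly measured at higher levels per length than the nuclear genes, with means over all libraries of 409 (mt-Nd6) to 12479 TPM (mt-Atp8) against 3.04 (Cox6a2) to 1021 TPM (Atp5b) among tested nuclear genes. The TPM of mt-Atp8 is uncertain, since this gene has 204 nt and the libraries had mean fragments of 110 to 217 nt. By counts it was below mt-Nd1 (means of 361 and 1749 CPM in naive PBS), though mt-Nd1 had 3914 TPM. Their levels carry a limit of counting. Chromosome 1 of this genome build holds copies of mitochondrial sequence (chr1:24611535-24616197), and 7 gene models there match mt-Co1, mt-Co2, mt-Co3, mt-Atp6, mt-Nd3, mt-Nd4 and mt-Nd4l over 294 to 876 nt at 99.71 to 100% identity. RSEM divides reads that fit several genes, and these copies were given 34.0 to 53.9% as many counts as the 13 mitochondrial genes together. The start of mt-Nd3 (chrM:9459-9491, plus strand) and of its copy Gm28438 (chr1:24613087-24613119, minus strand), from the GENCODE transcripts, is shown because the base in capitals is the only one by which their aligned sequences differ.
mt-Nd3: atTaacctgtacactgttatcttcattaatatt
Gm28438: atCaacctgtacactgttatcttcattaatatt
Counted from the first base of mt-Nd3 the difference is T3C, and 345 bases were aligned. Across libraries the copy took 0 to 89.9% of the counts of the pair. For mt-Co2 the copy took 79.0 to 98.2%, for mt-Co3 42.2 to 90.3% and for mt-Atp6 53.2 to 95.0%, so values of these genes are uncertain on their own and are given with the copies joined; mt-Nd1, mt-Nd2, mt-Nd5, mt-Nd6, mt-Cytb have no such model, and mt-Atp8 shares 43 nt with the copy of mt-Atp6.

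No mitochondrial gene was called in any of the 6 comparisons. The count was 0 of 13 with edgeR, with DESeq2 and with limma on log2(TPM + 1), and 0 with copies joined, and 1 gene, mt-Nd6 for LPS in naive mice, had an unadjusted p under 0.05 (35.4% of all genes in that comparison). The share of counts in the 13 genes was 1.88, 2.11, 1.91 and 2.51% in naive PBS and 2.66, 3.18, 1.39 and 2.97% in naive LPS. It was 1.74, 2.32, 2.76 and 5.22% in experienced PBS and 1.37, 1.55, 1.36 and 6.55% in experienced LPS. Replicate 4 was the highest library of its group in both experienced groups, and the other 3 experienced LPS libraries were among the lowest of all 16. With copies joined the means were 3.16 ± 0.441% (SD, n = 4), 3.73 ± 1.17%, 4.42 ± 2.21% and 3.70 ± 3.39% in the same order, and all groups overlapped. The 95% Wilson interval of the share in experienced LPS replicate 4 was 6.53 to 6.57%.

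Among the complex I genes, mt-Nd1, a membrane subunit next to the ubiquinone channel, stood at 1718, 1719, 1596 and 1963 CPM in naive PBS and at 2364, 5424, 1544 and 3147 CPM in naive LPS. It stood at 1112, 2098, 1106 and 6058 CPM in experienced PBS and at 1381, 1662, 1513 and 8487 CPM in experienced LPS. Naive LPS replicate 2 and both experienced replicates 4 were high, all groups overlapped, and the LPS differences were 0.84 ± 0.61 (adjusted p = 0.352) and 0.33 ± 0.61 (0.772). mt-Nd6, the only subunit gene read from the other strand of mitochondrial DNA, stood at 134, 437, 51.2 and 142 CPM in naive LPS against 47.6 to 84.5 CPM in naive PBS, with a difference of 1.5 ± 0.68 (adjusted p = 0.127). mt-Nd2, a proton-pumping subunit, held 554 to 594 CPM in naive PBS and 1040, 3744, 539 and 1041 CPM in naive LPS, a difference of 1.48 ± 0.70 (adjusted p = 0.145). Without both experienced replicates 4, mt-Nd1, mt-Nd2 and mt-Nd6 were called higher for LPS in naive mice at adjusted p of 0.0452, 0.0178 and 0.0213, where 15.7% of all genes were called higher. mt-Nd5 had 0.88 ± 0.67 and 0.31 ± 0.67, mt-Nd4 with its copy 0.79 and 0.25, and mt-Nd4l with its copy 1.15 and 0.43, none of them called; mt-Nd3 with its copy had -0.11 and -0.33.

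The genes of complexes III and IV had smaller or negative differences. mt-Cytb, cytochrome b of complex III, stood at 1891, 1967, 1810 and 2025 CPM in naive PBS and at 1905, 2880, 1319 and 2619 CPM in naive LPS. In experienced mice it stood at 1561, 2256, 2302 and 4326 CPM after PBS and 1253, 1555, 1408 and 4746 CPM after LPS. Replicate 4 was again the highest of both experienced groups, and the differences were 0.18 ± 0.39 (adjusted p = 0.783) and -0.22 ± 0.39 (0.764). mt-Co1, the catalytic subunit of complex IV, stood with its copy at 8091, 11905, 18981 and 27728 CPM in experienced PBS and 6824, 6702, 6874 and 30535 CPM in experienced LPS, a difference of -0.39 (adjusted p = 0.654). Without experienced LPS replicate 4, mt-Co1 and mt-Cytb were called lower after LPS in experienced mice on their own counts (-1.28 ± 0.37, adjusted p = 0.0236, and -0.87 ± 0.29, adjusted p = 0.0473), where 10.9% of all genes were called lower. In that fit all 13 mitochondrial genes had a difference below 0, with a median of -0.84, while 76 of 80 nuclear genes had one above 0, with a median of 0.68. Without both replicates 4 the mitochondrial median was -0.26 and none of the 13 was called in experienced mice. mt-Co3 with its copy had -0.16 and -0.79 (adjusted p = 0.788 and 0.162), and mt-Co2 with its copy 0.38 and 0.02 (0.609 and 0.984).

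Of the complex V genes, mt-Atp8 stood at 284 to 438 CPM in naive PBS and at 612, 2208, 269 and 434 CPM in naive LPS, a difference of 1.29 ± 0.87 (adjusted p = 0.314), which was 0.71 with fragment length as a term and 0.30 without LPS replicate 2. In experienced PBS it ranged from 48.3 CPM in replicate 3 to 1723 CPM in replicate 4. Replicate 3 also had the lowest mt-Nd4l, 25.1 CPM with its copy. It had the longest mean fragment of all libraries, 217 nt, and the part of this in the low levels was not tested. mt-Atp6 with its copy had 0.36 and -0.16 (adjusted p = 0.620 and 0.853). Between experienced and naive mice after PBS, 12 of 13 mitochondrial genes had a difference above 0, with a median of 0.59, and without both replicates 4 the median was 0.05 with 7 of 13 above 0. The LPS effect in experienced less that in naive mice had a median of -0.40 over the 13 genes, with 3 above 0, and 0 were called. Single libraries moved this median from -1.50 without experienced LPS replicate 4 to -0.06 without naive LPS replicate 2 and -0.03 without experienced PBS replicate 4, with 6 of 13 above 0 in both of the latter. It was -0.98 without both replicates 4, with 0 called.

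**Figure D5:**
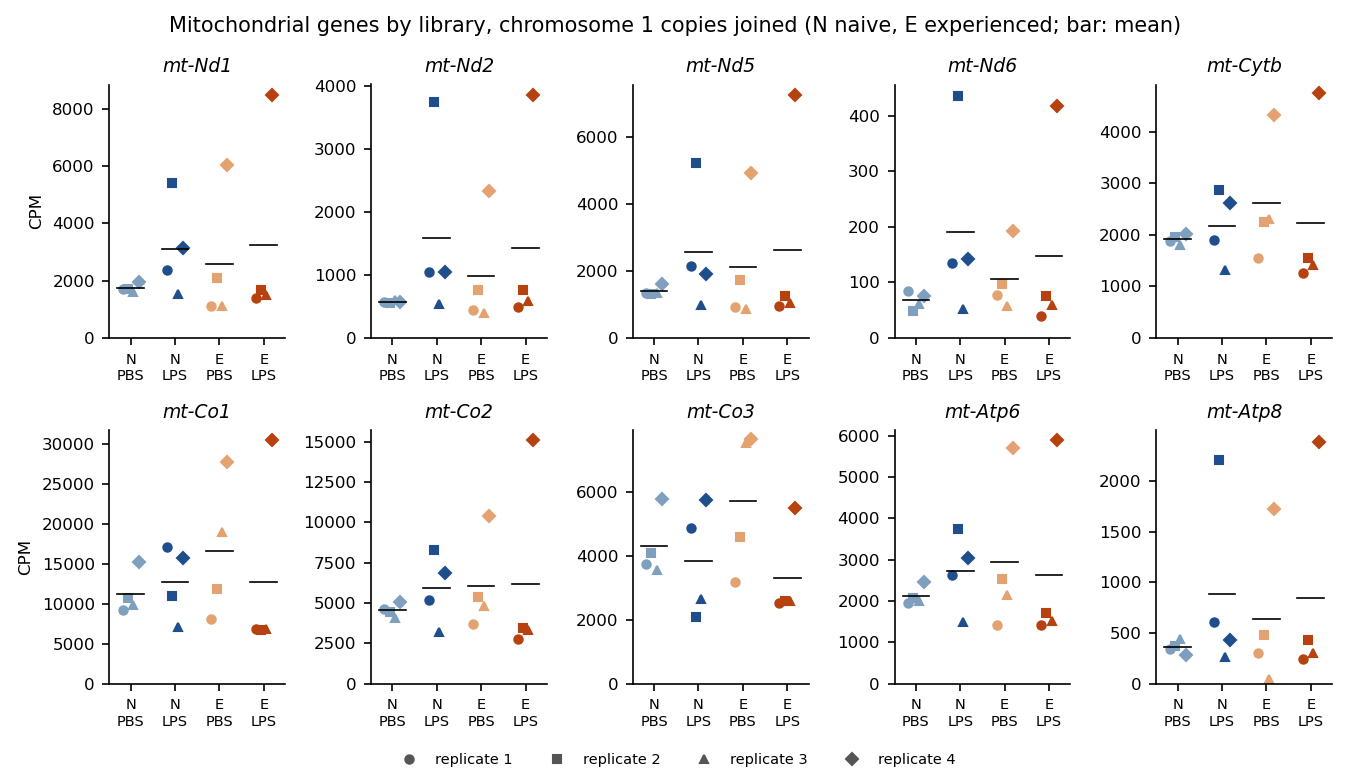
CPM of 10 mitochondrial genes in each library of naive (N) and experienced (E) mice after PBS or LPS, with counts of chromosome 1 copies joined where there is such a copy, on linear axes from 0; symbols are replicate numbers and bars group means. Experienced replicate 4 is the highest library after both PBS and LPS for mt-Nd1, mt-Nd5, mt-Cytb, mt-Co1 and mt-Co2.

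Other genes of the pathway were counted in lists chosen by function, to be read against all tested genes, of which 9.81% (naive) and 4.52% (experienced) were called higher after LPS and 11.9% and 8.26% lower. Of 16 assembly factors of complex I, 5 were called higher in naive and 4 in experienced mice after LPS and 0 lower; Ndufaf4 rose from 22.7 ± 2.92 to 47.1 ± 8.21 CPM (SD, n = 4) in naive mice (1.05 ± 0.17, adjusted p = 0.000492) and from 27.9 ± 6.09 to 47.9 ± 2.31 CPM in experienced mice (0.78 ± 0.17, adjusted p = 0.00607). Of 33 assembly factors of the other complexes, 4 were called higher and 0 lower in naive mice, a share of 12.1% called and near that of all genes called higher. In experienced mice 1 rose and 1 fell, 6.06% of the list and fewer than among all genes: Coa6, a copper factor of complex IV, rose by 0.81 ± 0.24 (0.0392) and Ttc19, a complex III factor, fell by 0.64 (SE 0.20, adjusted p = 0.0399). Cycs, cytochrome c, rose from 75.0 ± 3.22 to 153 ± 49.8 CPM in naive mice (1.02 ± 0.21, adjusted p = 0.00326) and from 98.8 ± 31 to 160 ± 9.41 CPM in experienced mice (0.69 ± 0.21, adjusted p = 0.0404). It was 1 of 2 called, with Atpif1, the inhibitor of the synthase, among 5 tested carriers and subunits outside the name rule in naive mice, and the only gene called in experienced mice. Among the other factors, Ecsit rose by 0.64 ± 0.15 and 0.74 ± 0.15 and Ndufaf6 by 0.92 ± 0.27 and 0.97 ± 0.27 in naive and experienced mice, with adjusted p of 0.00825, 0.00546, 0.0239 and 0.0271. The complex IV factors Pet100, Cox17, a copper chaperone, and Cox10, which makes heme A precursors, rose in naive mice by 0.82, 0.73 and 0.44, with adjusted p from 0.0224 to 0.0405.

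Genes that translate and copy the mitochondrial genome were counted against the same shares of all genes. Of 78 proteins of the mitochondrial ribosome, which makes the 13 mitochondrial subunits, 26 were called higher in naive and 16 in experienced mice and 0 lower, 33.3% and 20.5% of the list, and the median differences were 0.46 and 0.44. Mrps18b rose by 0.99 ± 0.18 (adjusted p = 0.00111) and 0.78 ± 0.18 (0.00856). Of 25 genes of mitochondrial DNA and RNA synthesis, 5 and 3 were called higher (12.0% of the list in experienced mice) and 0 lower; Lrpprc, which stabilizes mitochondrial mRNAs, rose by 0.77 ± 0.16 (0.00296) and 0.68 ± 0.16 (0.00923). Of 17 tricarboxylic acid cycle genes, 4 and 1 were called higher (23.5% and 5.88%, the latter near the share of all genes) and 0 lower, among them Dld, a subunit of 2-oxoacid dehydrogenases, in naive mice (0.74 ± 0.21, adjusted p = 0.0224) and Fh1, fumarate hydratase, in experienced mice (0.49 ± 0.15, adjusted p = 0.0454). Of 12 nuclear regulators, 3 and 0 were called higher and 1 and 1 lower, and 1 of 12 is near the share of all genes called lower. The gene that fell in both was Ppargc1a, a coactivator of mitochondrial genes, from 2.11 ± 0.916 to 0.370 ± 0.0155 CPM in naive mice (-2.48 ± 0.57, adjusted p = 0.00634) and from 1.2 ± 0.595 to 0.146 ± 0.143 CPM in experienced mice (-3.04 ± 0.64, adjusted p = 0.00580), while its relative Pprc1 rose in naive mice by 0.59 ± 0.17 (adjusted p = 0.0204). Of the 7 chromosome 1 copies, 1 was called, Gm28439 in naive mice, which held 277 ± 553 CPM after LPS, almost all of it in 1 library.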

How the data were processed

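RNA was measured in 16 libraries, 4 per group, each a table that stands for 2 technical replicates in the labels; no source used here says how these were merged, which annotation was used or whether counting used strand. Per the submitters' processing notes, reads were handled with Trim Galore 0.6.7, STAR 2.7.10a and RSEM 1.3.1 on GRCm38. The deposited tables give RSEM expected counts and TPM per gene, as the authors made them, per the file headers. The labels name a 10x Chromium kit, and the tables were treated as bulk libraries. Symbols came from GENCODE M21, which matched 45143 of 45706 identifiers.

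Expected counts were rounded and tested with edgeR 4.0.16 (R 4.3.3): low-count filter by group, TMM scaling, a mean per group over all 16 libraries, quasi-likelihood tests with 12 residual degrees of freedom, and Benjamini-Hochberg adjustment over 15186 genes (99.9% of counts) at 0.05. The biological coefficient of variation was 0.306. CPM values use the TMM-scaled library sizes. Errors after ± are SE for log2 differences and SD (n = 4) for CPM and shares. The procedure was tested on simulated data with known changes in 4 comparisons. It recovered 0 to 2% of 1.25-fold, 2 to 4% of 1.5-fold, 36 to 52% of 2-fold and 68 to 80% of 4-fold changes. False calls numbered 2 to 5 per comparison. A count of 0 called therefore does not exclude changes of 2-fold or less, and some changes of 4-fold can also be missed. For LPS in either kind of mouse, the median SE was 0.65 for mitochondrial and 0.25 for nuclear genes. Larger changes could thus be missed in the mitochondrial genes.

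Alternatives were DESeq2 1.42.0, limma 3.58.1 on log2(TPM + 1) and log2(TPM + 0.1), other scalings, no filter, only the groups compared, a replicate block, each library left out, and both experienced replicates 4 left out. Joining the chromosome 1 copies and fragment length as a term were chosen after seeing the data. Members and gene lists were chosen with earlier results of these data known. Named genes were all mitochondrial members, the 3 called nuclear members of lowest adjusted p per complex and comparison, the nuclear member of highest and lowest difference per comparison, fixed core subunits and tissue-linked forms, and the 3 called genes of lowest adjusted p in each other list, of which examples are given. Ndufs5, Ndufa5, Ndufb6, Ndufb4, Cox7a2l, Atp5s and the 9 genes whose PBS groups did not overlap were named after their values were seen. Where labels give the same replicate numbers, 24 pairs with the same number correlated at -0.22 to 0.32 (median -0.03), so the numbers were not taken to pair the libraries. In experienced mice the PBS and LPS pairs of replicates 1 to 4 gave 0.18, 0.22, -0.12 and 0.32. Whether these pairs share a batch was not tested.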

Additional observations from a re-analysis of the deposited data

Results flagged for a closer look

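Single libraries stood apart from the other 3 of their group in 33 of 172 groups tested, by a gap to the nearest library above Dixon's 95% critical value as a share of the group's range; chance alone flags about 1 in 20 groups. Of these, 21 were in experienced LPS replicate 4.

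In experienced LPS replicate 4 the mitochondrial genes were high: mt-Nd1 stood at 8487 CPM, mt-Nd2 at 3844, mt-Nd5 at 7244, mt-Nd6 at 418, mt-Cytb at 4746 and mt-Atp8 at 2380 CPM. Counted without their chromosome 1 copies, mt-Nd4 stood at 7505 CPM, mt-Nd4l at 440, mt-Co1 at 29477 and mt-Atp6 at 2761 CPM; with the copies joined these were 7517 CPM for mt-Nd4, 930 for mt-Nd4l, 30535 for mt-Co1 and 5901 for mt-Atp6. On their own counts the 13 genes held 6.55% of its counts. Of the nuclear genes in this library Uqcrb was high at 222 CPM. The others were low: Sdha at 193 CPM, Sdhb at 31.5, Uqcrc1 at 113, Cyc1 at 23.1, Cox5a at 37.1, Atp5b at 594, Ndufa8 at 43.6 and Atp5e, subunit epsilon of the synthase, at 23.2 CPM, with 0.569% of counts in all nuclear members.

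Experienced PBS replicate 4 was high for mt-Nd4 (5119 CPM without its copy), Uqcrc1 (184 CPM), Ndufs6 (51.0 CPM) and Atp5h (133 CPM), and experienced PBS replicate 2 for Cox4i2 (1.15 CPM against 0.333 to 0.465 in the others). Naive PBS replicate 1 was high for Ndufb10 (42.5 CPM), Cox5b (142 CPM) and Atp5k (44.3 CPM), and naive PBS replicate 4 for mt-Nd5 (1595 CPM). Naive LPS replicate 2 was high for mt-Nd2 (3744 CPM) and Uqcrb (280 CPM), and naive LPS replicate 4 for mt-Co2 counted without its copy (470 CPM).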

How the results depend on the processing

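Of the 80 nuclear genes tested for LPS in naive mice, 18 were called by edgeR, 10 with upper-quartile factors and 3 with limma on log2(TPM + 0.1) and also on log2(TPM + 1), and leaving out single libraries gave 2 to 17. In experienced mice 10 were called, 22 with DESeq2, 1 with either limma setting, 56 without both replicates 4 and 56 when the chromosome 1 copies were joined as well, and leaving out single libraries gave 1 to 50. With the replicate block, 15 were called in naive and 6 in experienced mice, though the replicate numbers were not taken to pair the libraries. On the TPM scale with a pseudocount of 1 the median of all genes was itself shifted, to -0.09 in naive and -0.13 in experienced mice, and the medians of the nuclear genes were 0.11 and 0.32. Of the 13 mitochondrial genes, 0 were called for LPS in naive mice, 1 when only the groups compared were fitted, 3 without both experienced replicates 4 and 3 with copies joined as well, all higher. Leaving out single libraries gave 0 to 1 in naive mice. That 1 was mt-Co3, called lower on its own counts without naive LPS replicate 4 (-1.30 ± 0.37, adjusted p = 0.0204). Its chromosome 1 copy took 42.2 to 90.3% of the counts of the pair. In experienced mice leaving out single libraries gave 0 to 2, all lower. The cause of these changes was not tested, and the share of all genes called was not counted in most of these settings. The counts between experienced and naive mice stayed at 0 in the alternatives run. Over the 20 calls of named genes, 290 values under an alternative kept the call, 130 lost it and 0 reversed. Experienced LPS replicate 4 had the lowest depth (7.72 M counts), and the part of depth in its departure from its group was not tested.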
